A study of Mus musculus with 6 samples.

Results

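The basal and suprabasal keratins of newborn mouse epidermis are described here: Krt5, Krt14 and Krt15 of the basal layer, and Krt1, Krt2, Krt10 and Krt77 of the layers above it. They were chosen by name as 7 keratin genes, with no threshold on their values. Of the 7, 6 had a column among the 12894 Ensembl gene IDs of the table. Krt2 was not analysed here. The table also held 16 other keratin genes. Bulk RNA sequencing was done on epidermis separated from dermis of C57BL/6 mice at postnatal day 0, in 3 control libraries and 3 libraries labelled Hnrnpu knockout. Hnrnpu, which encodes a nuclear RNA- and DNA-binding protein, was removed with a loxP-Cre system; the labels name neither the Cre driver nor the deleted part of the gene. The genotype given for control 1 is "Wild type" and that given for controls 2 and 3 is "Heterogenous", so the controls were not all of 1 genotype. Each title carries its own number, read as an animal number, and each control has a number next to that of the labelled knockout with the same replicate number here.

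Keratins are the intermediate filament proteins of epithelial cells. A filament is built from heterodimers of 1 acidic type I keratin and 1 basic type II keratin, so each layer expresses partners from both classes. Dividing basal keratinocytes assemble Krt5 (type II) with Krt14 (type I), and Krt15 is a further type I keratin of the basal layer. Cells that leave the basal layer switch to Krt1 (type II) and Krt10 (type I). Krt2 and Krt77 are type II keratins of suprabasal cells. The type I genes named here lie on mouse chromosome 11 and the type II genes on chromosome 15.

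Values are normalized counts as deposited. An estimated 6460000 to 9120000 reads were assigned per library, and 1 read was worth 0.755 to 1.70 normalized counts. Hnrnpu itself was measured at 1450, 1318 and 1160 in controls 1 to 3 and at 1565, 1342 and 1036 in labelled knockouts 1 to 3. The labelled knockouts were at 99.4% of control (95% interval 72.5 to 136%, adjusted p = 0.976), so the level of this transcript does not separate the groups, and a level over the whole gene need not show a deleted part. For this reason the libraries are called labelled knockout throughout. Xist was at 0, 0.885 and 3.27 in the controls and at 1.87 in labelled knockout 1, but at 5656 and 4758 in labelled knockouts 2 and 3, and the Y-linked Ddx3y was listed at 0 in only those 2 libraries. By these 2 genes labelled knockouts 2 and 3 differ in sex from the controls, so sex and label cannot be told apart there. Each member's change is therefore also given for labelled knockout 1 alone against the controls. That arm is 1 library, which is assumed to vary like the controls, so the controls supply the spread and its p-values say little of the condition.

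Groups were compared with limma on log2(value + 1) over 12872 genes, with Benjamini-Hochberg adjusted p-values over all of them and a threshold of 0.05. Changes are log2 differences, labelled knockout minus control, with the moderated SE. Of the 6 keratins measured, 1 rose (Krt14), 2 fell (Krt15 and Krt77) and 3 did not pass the test (Krt5, Krt1 and Krt10). Over all genes tested 33.6% passed, 17.7% higher and 15.9% lower, so a share of 3 in 6 is to be read against that background. The layers did not move as blocks: the 3 basal keratins gave 1 higher, 1 lower and 1 not past the threshold, and the 3 suprabasal keratins gave 0 higher, 1 lower and 2 not past it.

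**Figure D1:**
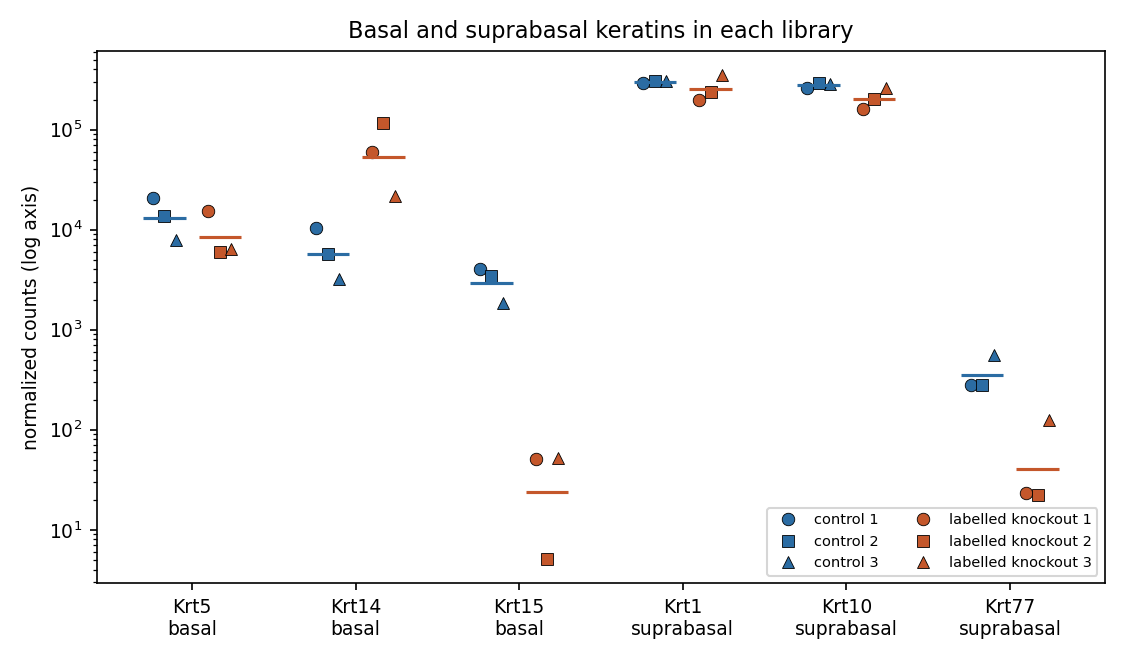
Normalized counts (log axis) of the 3 basal and 3 suprabasal keratins in each library; blue marks controls, orange marks libraries labelled knockout, the shape gives the replicate and the line is the geometric mean of 3 libraries. Krt14 lies higher in every labelled knockout than in any control, Krt15 and Krt77 lie lower, and Krt5 and Krt1 overlap.

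Compared per length, the order of the levels in the controls was Krt10, Krt1, Krt5, Krt14, Krt15 and Krt77. On the scale of normalized counts per kilobase of the longest coding transcript, the control level was 133800 ± 6900 (SD, n = 3) for Krt10 and 122200 ± 2980 for Krt1. The basal keratins stood far lower, at 6432 ± 2950 for Krt5, 3775 ± 2120 for Krt14 and 1813 ± 661 for Krt15, and Krt77 was at 127.6 ± 56.1. Krt10 and Krt1 did not overlap in the controls, while the ranges of Krt5 and Krt14 overlapped, as did those of Krt14 and Krt15. In the labelled knockouts the order was Krt1 at 107300 ± 32400, Krt10 at 98820 ± 23800, Krt14 at 38630 ± 27700, Krt5 at 4227 ± 2420, Krt15 at 21.11 ± 15.7 and Krt77 at 19.42 ± 20.2. Krt14 thus stood above Krt5 in the labelled knockouts, and there Krt1 and Krt10 overlapped, as did Krt15 and Krt77.

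Several of these genes share sequence with other keratins, which matters for what follows because the keratins Krt6a, Krt6b, Krt16 and Krt17, known from wounded and hyperproliferative epidermis, rose in the labelled knockouts. The longest coding stretch that Krt14 has in common with Krt16 is shown, as read from GENCODE M21 transcripts, because Krt14 is the member that rose. All bases shown are identical in both genes.
Krt14 and Krt16: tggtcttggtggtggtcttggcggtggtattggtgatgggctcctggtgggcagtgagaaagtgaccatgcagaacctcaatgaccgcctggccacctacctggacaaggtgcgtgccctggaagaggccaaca
The run is 134 bases long and covers coding bases 306 to 439 of Krt14, counted from 1 at the start codon. Of all 50-base stretches in the Krt14 transcripts, 13.9% also occur in another gene (11% in Krt16 and 3.22% in Krt17). For Krt5 the share is 12.2%, with 6.98% in Krt6a, 3.82% in Gm5478, 3.72% in Gm44323 and 2.28% in Krt6b. Krt15 shares 0.64% and Krt10 2.37% of such stretches, and Krt1 and Krt77 share 0%. How reads that match more than 1 gene were assigned is not given in the sources used here, so Krt14 and Krt5 carry more uncertainty than the other members.

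Krt14, the type I partner of Krt5, rose. It was measured at 10309, 5712 and 3208 normalized counts in controls 1 to 3 and at 59688, 115333 and 21768 in labelled knockouts 1 to 3. Every labelled knockout lay above every control. The log2 change was 3.21 ± 0.61 (95% interval 1.83 to 4.59), or 9.26-fold, with an adjusted p of 0.00547. Control 3 was the lowest control and labelled knockout 3 the lowest of its group, and without labelled knockout 3 the log2 change was 3.85. With quantile normalization it was 2.50, and for labelled knockout 1 alone it was 3.38.

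Krt16, a type I keratin of injured epidermis, was measured at 1916, 874 and 394 in the controls and at 83259, 195664 and 50945 in the labelled knockouts, a log2 change of 6.75 ± 0.62 (adjusted p = 0.000233). The ratio of Krt14 to Krt16 was 5.38, 6.54 and 8.14 in the controls and 0.717, 0.589 and 0.427 in the labelled knockouts. Krt16 thus exceeded Krt14 in each labelled knockout and in no control. If every read from the 50-base stretches that Krt16 and Krt17 share with Krt14 had been assigned to Krt14, with even coverage, Krt14 without them would be 10030, 5556 and 3114 in the controls and 48550, 88570 and 14710 in the labelled knockouts. The groups remained apart after that subtraction, with a log2 difference of 2.84, on a calculation chosen after the values were seen. The amounts were taken from Krt16 and Krt17 as measured, which would lack such reads, so the subtraction is somewhat too small. Only exact 50-base matches were counted, and the read length is not given in these sources.

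Krt15, a type I keratin that marks basal cells of epidermis and the hair follicle bulge, fell furthest of the members. It was measured at 4009, 3406 and 1833 in controls 1 to 3 and at 50.5, 5.10 and 52.1 in labelled knockouts 1 to 3. Its log2 change was -6.84 ± 0.76 (95% interval -8.58 to -5.10), that is 115-fold lower, with an adjusted p of 0.0006. All 3 labelled knockouts lay far below all 3 controls. The controls rested on an estimated 5310, 3847 and 2242 reads and the labelled knockouts on 54, 3 and 47. The value in labelled knockout 2 carries an exact Poisson 95% interval of 0.619 to 8.77 reads, which is 1.05 to 14.9 normalized counts and covers counting error only. Without that library the log2 change was -5.81, and for labelled knockout 1 alone it was -5.83.

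Krt5, the type II partner of Krt14, did not pass the test. It was measured at 20825, 13693 and 7878 in the controls and at 15413, 5982 and 6463 in the labelled knockouts, and the groups overlapped. The log2 change was -0.64 ± 0.44 (95% interval -1.64 to 0.36, adjusted p = 0.282). Krt5 was lower in the labelled knockout than in the control for each of the 3 adjacent animal numbers, and with these numbers used as a replicate block the adjusted p was 0.0374. For labelled knockout 1 alone the difference from the controls was 0.23. The shared stretches bear more on Krt5 than on Krt14: if all reads from those of Krt6a and Krt6b had been assigned to Krt5, they would amount to 10330, 25210 and 6293 normalized counts in labelled knockouts 1 to 3, more than the whole Krt5 value in labelled knockout 2. In the controls the same quantity is only 7.19, 9.19 and 2.24. Krt5 without these reads would be 20820, 13680 and 7876 in the controls and 5083, -19230 and 170 in labelled knockouts 1 to 3. The groups would then no longer overlap, but the negative value shows that not all such reads can have gone to Krt5. With regard to Krt6a and Krt6b, the level of Krt5 is therefore uncertain in the labelled knockouts and much less so in the controls. Stretches shared with Gm5478 and Gm44323 were not part of this calculation. In bulk RNA, fewer basal cells and less RNA per basal cell cannot be told apart.

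All 3 basal keratins were highest in control 1 and lowest in control 3, and the sum of other basal layer genes had the same order. The summed values of 15 basal layer genes other than keratins (among them integrins, laminin-332 chains, Col17a1, Dst and Trp63) came to 26870, then 20520 and 10480 in controls 1 to 3, and to 29400, 17270 and 10710 in labelled knockouts 1 to 3. These sums overlapped between the groups and were close within adjacent animal numbers. Set against them within each library, the log2 ratio of Krt14 to the sum was -1.65 ± 0.24 (SD, n = 3) in the controls and 1.60 ± 0.99 in the labelled knockouts. For Krt15 it was -2.62 ± 0.12 and -9.53 ± 2.04, and for Krt5 -0.45 ± 0.11 and -1.06 ± 0.42. With this sum as denominator, none of these 3 ratios overlapped between groups. For Krt5 the gap was narrow, the lowest control ratio being 0.667 and the highest labelled knockout ratio 0.603. The sum includes Cd44, at 2308, 2007 and 2046 in the controls and 4507, 6489 and 3096 in the labelled knockouts. The gap for Krt5 depends on Cd44. With Cd44 taken out of the sum, the Krt5 ratio in labelled knockout 3 would exceed that in control 2, so the groups would overlap. Krt5 in the labelled knockouts also carries the uncertainty from stretches shared with Krt6a and Krt6b. The 3 ratios were added after the values were seen, and each exact permutation test gave p = 0.1, the smallest that 3 against 3 can give. The log2 difference for Krt15 was -6.91, or -5.82 without labelled knockout 2 and -7.84 without labelled knockout 3.

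**Figure D2:**
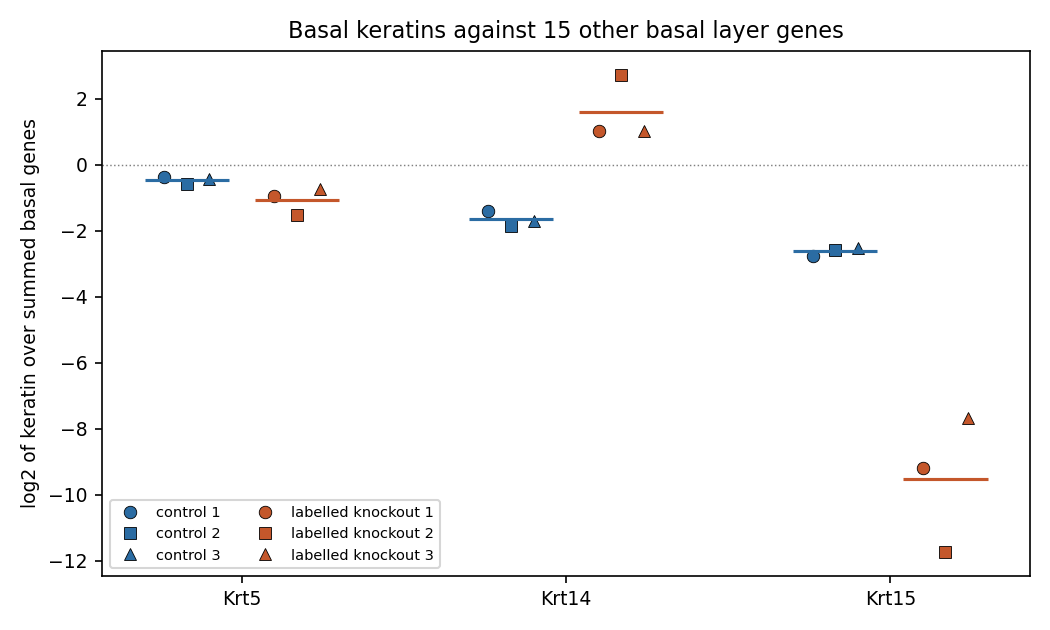
Log2 ratio of Krt5, Krt14 and Krt15 to the summed normalized counts of 15 other basal layer genes in each library; colours and shapes give group and replicate and lines give group means. The controls lie close together for each gene, while in the labelled knockouts Krt14 is above them and Krt15 and, by a smaller distance, Krt5 are below. The sum includes Cd44, which rose, and without Cd44 the groups would overlap for Krt5. Krt5 in the labelled knockouts is also uncertain because of stretches shared with Krt6a and Krt6b.

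Of the 15 basal layer genes, 1 rose and 2 fell, with a median log2 change of -0.20 beside -0.02 over all genes tested. Of all those genes 17.7% rose and 15.9% fell. Cd44, a hyaluronan receptor, rose by 1.08 ± 0.26 (adjusted p = 0.0148). The chemokine gene Cxcl14 fell by 2.79 and Fgfr2, a receptor for fibroblast growth factors, fell by 2.63, both on the log2 scale. For labelled knockout 1 alone the values were -1.83 for Cxcl14 and -1.75 for Fgfr2. The median of the list was -0.78 without labelled knockout 1, 0.08 without control 1 or without labelled knockout 3, and 0.89 for labelled knockout 1 alone, so its sign is not stable. Cd44 did not pass with quantile normalization or without control 2 or control 3 (adjusted p between 0.0525 and 0.0617). When neighbouring animal numbers formed a replicate block, 6 of the 15 rose and 5 fell, beside 2952 higher and 2829 lower of all 12872 genes.

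The proportions of the basal keratins to each other differed between the groups. The ratio of Krt14 to Krt5 in normalized counts was 0.495, 0.417 and 0.407 in controls 1 to 3 and 3.87, 19.3 and 3.37 in labelled knockouts 1 to 3. Its log2 mean was -1.19 ± 0.15 (SD, n = 3) against 2.66 ± 1.40. The controls were close to each other although their Krt5 and Krt14 levels differed widely. Ratios to Krt5 in the labelled knockouts carry the uncertainty from stretches shared with Krt6a and Krt6b. The ratio of Krt15 to Krt5 was 0.193, 0.249 and 0.233 in the controls and 0.00327, 0.000853 and 0.00806 in the labelled knockouts. That of Krt15 to Krt14 was 0.389, 0.596 and 0.571 against 0.000845, 4.42e-05 and 0.00239, where the lowest value rests on 3 estimated reads of Krt15 and has a counting interval of 9.12e-06 to 0.000129. Groups did not overlap in any of these ratios, each with an exact permutation p of 0.1 (adjusted p = 0.133 over the 12 ratios computed). The log2 differences were 3.85 for Krt14 to Krt5, -6.31 for Krt15 to Krt5 and -10.15 for Krt15 to Krt14. Without labelled knockout 2 they were 3.04, -5.44 and -8.48, and without labelled knockout 3 the last 2 were -7.06 and -11.36.

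**Figure D3:**
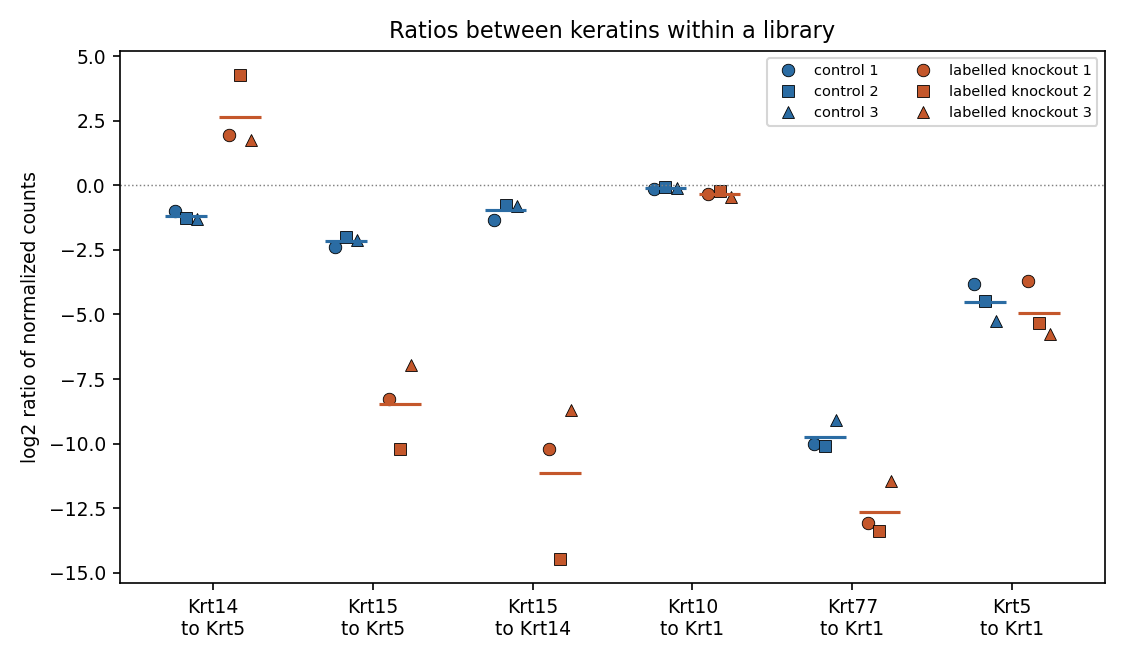
Log2 ratios between keratins within each library, which do not depend on the scaling between libraries; points are libraries and lines are group means. Krt14 to Krt5 changes sign between the groups, both Krt15 ratios and Krt77 to Krt1 are lower in the labelled knockouts, Krt10 to Krt1 is lower by a small step, and Krt5 to Krt1 overlaps. Krt5 in the labelled knockouts is uncertain because of stretches shared with Krt6a and Krt6b.

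Among the suprabasal keratins, Krt1 and Krt10 were the most abundant members and neither passed the test. Krt1 was measured at 291616, 304010 and 304552 in the controls and at 199681, 237820 and 352515 in the labelled knockouts. The labelled knockouts lay on both sides of the controls, and the log2 change was -0.23 ± 0.30 (95% interval -0.90 to 0.44, adjusted p = 0.569), or -0.59 for labelled knockout 1 alone. Krt10 was measured at 263804, 291291 and 285242 in the controls and at 159412, 202551 and 258828 in the labelled knockouts. Every labelled knockout lay below every control for Krt10, by a narrow margin in labelled knockout 3. The log2 change of Krt10 was -0.46 ± 0.28 (95% interval -1.10 to 0.17, adjusted p = 0.219), or -0.81 for labelled knockout 1 alone.

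The call on Krt10 depends on the scaling. With library totals set equal its log2 change was -0.81 (adjusted p = 0.0166), and with totals excluding the keratin genes set equal it was -0.77 (adjusted p = 0.0197). These scalings also move the median log2 change of all genes from -0.02 to -0.36 and -0.32, so relative to that median Krt10 differs by about the same amount as under the deposited scaling.

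The ratio of Krt10 to Krt1 was 0.905, 0.958 and 0.937 in the controls and 0.798, 0.852 and 0.734 in the labelled knockouts. The groups did not overlap, and the log2 difference was -0.23, with an exact permutation p of 0.1, the smallest possible. The ratio of Krt5 to Krt1 overlapped between groups (log2 difference -0.41, exact permutation p = 0.7). The mean log2 level of the 3 suprabasal keratins minus that of the 3 basal keratins differed by 0.18 between groups (exact permutation p = 0.9), and the summed type I to summed type II values of the 6 members differed by 0.14 on the log2 scale (exact permutation p = 0.7). Without labelled knockout 3 the first of these 3 was 0.013 and the second -0.32. Without control 1 the second was -0.22, and without labelled knockout 2 the third was -0.044. All 3 include Krt5, whose level in the labelled knockouts is uncertain because of stretches shared with Krt6a and Krt6b.

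Krt77, a type II keratin of suprabasal cells that is far less abundant than Krt1, fell. It was measured at 280, 278 and 564 in controls 1 to 3 and at 23.4, 22.1 and 125 in labelled knockouts 1 to 3. Replicate 3 was the highest in both groups, and the groups did not overlap. The log2 change was -3.09 ± 0.63 (95% interval -4.52 to -1.66), that is 8.54-fold lower, with an adjusted p of 0.0073. The values rest on an estimated 371, 314 and 690 reads in the controls and 25, 13 and 113 in the labelled knockouts. Without labelled knockout 3 the log2 change was -3.90, and for labelled knockout 1 alone it was -3.86. Against Krt1 in the same library the log2 ratio was -9.73 ± 0.57 (SD, n = 3) in the controls and -12.64 ± 1.03 in the labelled knockouts, a difference of -2.91, or -3.50 without labelled knockout 3.

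As a share of all normalized counts, the 6 keratins made up 8.63, 8.44 and 8.09% in controls 1 to 3 and 5.30, 5.11 and 7.55% in labelled knockouts 1 to 3. The suprabasal members carried most of this, with 8.11, 8.13 and 7.92% against 4.38, 4.01 and 7.22%. The basal members held 0.513, 0.311 and 0.173% against 0.917, 1.10 and 0.334%, and here the groups overlapped. Labelled knockout 3 was nearest to the controls in each of these shares.

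Within the keratin genes alone the make-up of the libraries differed more. The 6 members supplied 98.0, 97.9 and 98.1% of all keratin normalized counts in the controls and 55.5, 39.3 and 74.6% in the labelled knockouts. Krt6a, Krt6b, Krt16 and Krt17 supplied 0.544, 0.372 and 0.274% in the controls and 42.8, 59.0 and 23.7% in the labelled knockouts. With those 4 genes left out of the denominator, the members supplied 98.6, 98.2 and 98.3% against 97.1, 95.8 and 97.7%, and the basal members 5.86, 3.62 and 2.11% against 16.8, 20.7 and 4.32%. Shares are of counts, not per length.

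**Figure D4:**
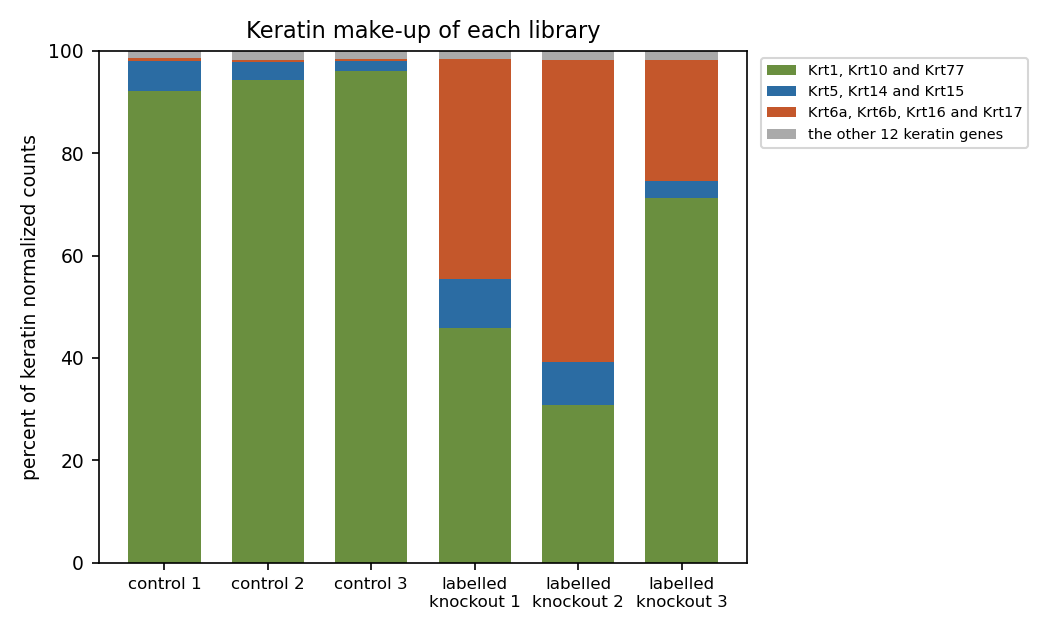
Stacked share of all keratin normalized counts in each library, in percent, held by the suprabasal members, the basal members, the 4 wound keratins and the other 12 keratin genes. Controls are almost wholly Krt1 and Krt10, and the wound keratins hold 23.7 to 59.0% in the labelled knockouts.

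Among the 16 other keratin genes, 7 rose, 2 fell and 7 did not pass the test, beside 17.7% higher and 15.9% lower over all genes tested. Krt6a rose by 11.29 ± 0.63, Krt6b by 10.67 ± 0.62, Krt16 by 6.75 ± 0.62 and Krt17 by 4.67 ± 0.42 on the log2 scale, the last by 4.06 under quantile normalization. Leaving those 4 aside, 3 of 12 rose and 2 fell. Krt80, a type II keratin of stratified epithelia, rose by 1.35 ± 0.30 (adjusted p = 0.0103), with 0.96 for labelled knockout 1 alone and 0.68 under quantile normalization. Krt73 rose by 3.33 ± 0.68 and Krt75, a keratin of the hair follicle companion layer, by 5.31 ± 1.17, both from low levels, and Krt75 was listed at 0 in controls 1 and 3, so the size of its change depends on the pseudocount (3.73 with 5 and 5.99 with 0.5). Krt12, the type I keratin known from corneal epithelium, fell by 4.54 ± 0.97. Without labelled knockout 2 the changes of Krt12, Krt73 and Krt75 were -3.25, 2.74 and 4.49, and without labelled knockout 3 those of Krt12 and Krt73 were -5.41 and 3.96. Krt75 was at 4.63 without control 1 or control 3, Krt6a at 10.62 without control 3, and Krt6b at 10.01 and 11.26 without labelled knockouts 2 and 3. Krt79 had a log2 change of -0.77 ± 0.25 with an adjusted p of 0.0463, a call that was lost when any of the 3 controls or labelled knockout 1 was left out (adjusted p between 0.0672 and 0.123). Of the 2 measured keratins of simple epithelia and periderm, Krt7 was at -1.04 ± 0.46 and Krt23 at 0.48 ± 0.19, and of the hair shaft keratins Krt32 was at -1.29 ± 0.88, none past the threshold. With neighbouring animal numbers as the replicate block Krt7 and Krt23 did pass (adjusted p = 0.0201 and 0.0354), and Krt7 also passed with library totals set equal, with or without the keratins, with array weights and without labelled knockout 2 (adjusted p between 0.023 and 0.0409). Krt32 was at -2.29 without labelled knockout 2 (adjusted p = 0.0337) and at -0.49 without labelled knockout 1.

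**Figure D5:**
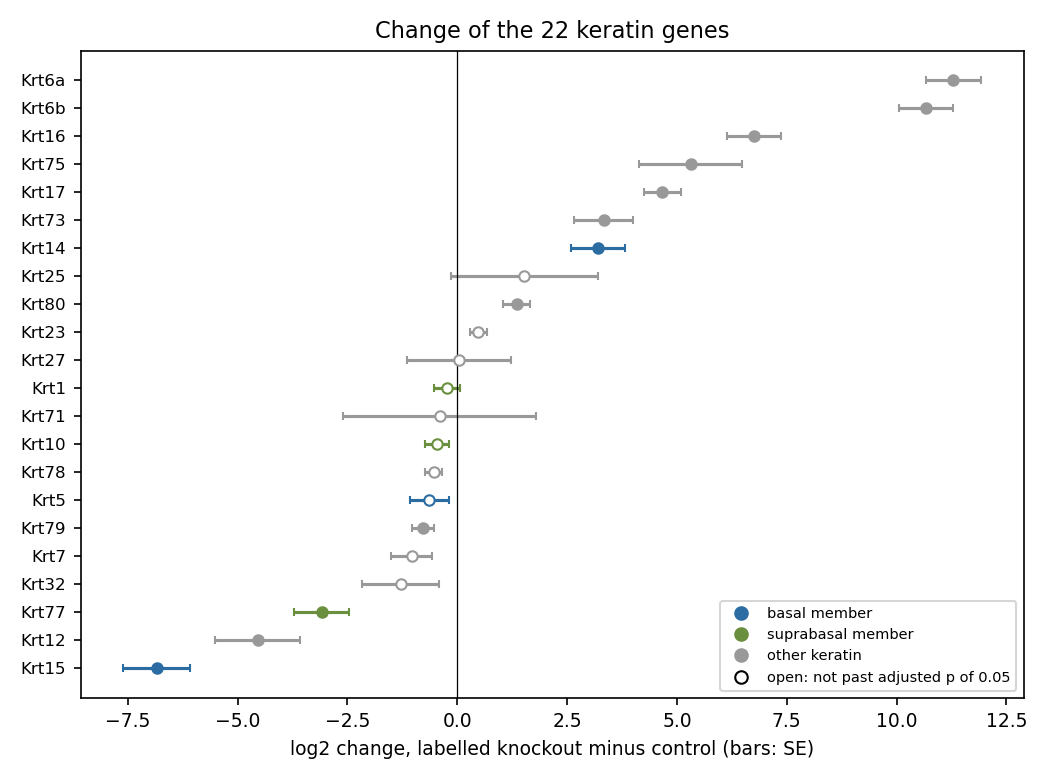
Log2 change of the 22 keratin genes, labelled knockout minus control, with moderated SE bars; filled points passed an adjusted p of 0.05 and open points did not. Krt14 is the only member above 0 past the threshold, Krt15 lies lowest of all, and Krt1, Krt10 and Krt5 lie near 0.

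Genes that go with the suprabasal keratins in differentiation moved in both directions, as did genes at large. Over all genes tested 17.7% rose and 15.9% fell, with a median log2 change of -0.02. Of 14 spinous layer genes, 4 rose and 1 fell, with a median log2 change of 0.18. The desmosomal cadherins Dsg1b and Dsc1 rose by 1.24 ± 0.19 and 1.18 ± 0.22, and Sfn, which encodes 14-3-3 sigma, rose by 1.21 ± 0.23, while Sbsn rose by 0.90 and Calml3 fell by 0.85. Of 16 granular layer genes, 6 rose and 3 fell, with a median of 0.22. The 3 rises with the smallest adjusted p were those of Rptn, an envelope protein gene, at 5.63 ± 0.38, Abca12, a lipid transporter, at 1.43 ± 0.22 and Tgm1, an envelope crosslinking enzyme, at 1.71 ± 0.27. Casp14, a protease of cornifying cells, fell by 1.14, and Hrnr and Flg2 were the other 2 that fell. With quantile normalization the counts were 1 higher and 7 lower of the spinous genes, and 4 higher and 6 lower of the granular genes, and Sfn, Abca12 and Rptn were at 0.51, 0.48 and 5.02. With library totals set equal they were 4 higher and 4 lower, and 6 higher and 6 lower. Of all 12872 genes, 2207 were higher and 2223 lower with quantile normalization, and 1440 and 3065 with library totals set equal. Of the granular genes 1 fell when any control or labelled knockout 1 was left out, and of the spinous genes 0 fell without control 2 or control 3. Over all 12872 genes 1172, 1121 and 1132 fell without control 1, 2 and 3, and 1822 without labelled knockout 1.

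Keratin filaments are anchored at desmosomes by desmoplakin and plakophilins and at hemidesmosomes by plectin and Dst. Of 15 genes of these junctions, desmosomal cadherins among them, 4 rose and 0 fell, with a median log2 change of 0.01. Over all genes tested 17.7% rose and 15.9% fell. The risers were Dsc2 by 3.82 ± 0.33, Dsg3, a cadherin of the lower layers, by 3.07 ± 0.53, Dsc1 by 1.18 ± 0.22 and Pkp3 by 0.59 ± 0.19. Only Plec and Dst of the list are hemidesmosomal, so the list cannot compare desmosomes with hemidesmosomes. Desmoplakin (Dsp), the linker between keratin and the junction, was at -0.06 ± 0.20 and plectin (Plec) at 0.00 ± 0.37. With quantile normalization 2 rose and 7 fell, beside 2207 higher and 2223 lower of all 12872 genes. With library totals set equal 3 rose and 4 fell, beside 1440 higher and 3065 lower. Under quantile normalization Dsc1 was at 0.24 (adjusted p = 0.343) and the spinous gene Dsg1b at 0.39 (adjusted p = 0.0678).

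Transcription factors and other regulators known to act on keratin genes gave 4 higher and 4 lower of 29, with a median log2 change of -0.08. Of all genes tested 17.7% were higher and 15.9% lower, so under the deposited scaling these counts do not exceed the background. Ehf, an Ets factor of epithelia, rose by 3.49 ± 0.46, and Sp1, Cebpb and Runx1 also rose, by 0.65, 1.30 and 1.33. Pou2f3 and Pou3f1, POU factors of suprabasal keratinocytes, fell by 2.11 and 2.59, Satb1, a chromatin organizer, fell by 1.24 ± 0.18 and Cebpa fell by 0.96. Trp63, the master regulator of stratified epithelium, was at -0.59 ± 0.34 (adjusted p = 0.203), and the AP-2 factor Tfap2a was at -0.22 ± 0.16. With 1 library left out, 1 to 4 rose and 3 to 6 fell, the lowest count of higher calls coming without control 1 and the highest of lower calls without labelled knockout 3. Over all 12872 genes those fits gave 1512 to 2342 higher and 1121 to 2167 lower calls. With library totals set equal 1 rose and 9 fell, beside 1440 higher and 3065 lower of all 12872 genes. With quantile normalization 2 rose and 10 fell, beside 2207 higher and 2223 lower of all 12872. Under these 2 settings lower calls took a larger share of the list than of all genes.

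The promoters of Krt5 and Krt14 are shown because these partners are known to be expressed together and their ratio differed between the groups. The 250 bases before the RefSeq transcription start (GRCm38.p6, minus strand for both, written 5′ to 3′) are at chr15:101712906-101713155 for Krt5 and chr11:100206031-100206280 for Krt14. Capitals mark matches to CACCC on either strand, a motif of Klf and Sp factors.
Krt5: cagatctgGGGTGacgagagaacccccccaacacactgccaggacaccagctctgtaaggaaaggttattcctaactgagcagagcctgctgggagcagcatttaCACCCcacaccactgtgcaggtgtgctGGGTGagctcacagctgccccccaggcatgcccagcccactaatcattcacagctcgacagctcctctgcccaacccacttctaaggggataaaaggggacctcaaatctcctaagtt
Krt14: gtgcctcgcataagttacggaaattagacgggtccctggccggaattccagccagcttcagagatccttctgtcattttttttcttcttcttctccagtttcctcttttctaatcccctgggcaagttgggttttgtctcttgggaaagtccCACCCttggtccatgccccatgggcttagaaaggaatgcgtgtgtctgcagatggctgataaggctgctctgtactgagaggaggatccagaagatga
Krt5 held 3 matches, with first bases at -242, -145 and -118, and Krt14 held 1, at -98. CACCC was found in 52.0% of 32851 such windows over all promoters, so its presence is common. Both strands were also searched for TATAAA (12.4% of windows), the AP-1 motif TGANTCA (6.75%) and the AP-2 motif GCCNNNGGC (13.7%), which were not among the letters of either window. The Krt10 window held TATAAA at -26 and 1 CACCC, and that of Krt77 held none of the 4 motifs. These motifs do not overlap each other in the windows shown. Krt1 and Krt15 are not shown.

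The genes whose pattern over the 6 libraries was most like that of each member were taken by Pearson's r of log2(value + 1) among 6141 genes at or above the median level, as a description. For Krt5 they were Vezf1 (r = 0.997), Golim4 and Usp9x, which like Krt5 were high in control 1 and low in control 3. For Krt14 they were Cfl1 (r = 0.996), Klhl21 and Lpcat3, and for Krt15 Isoc1 (r = 0.999), Frmd6 and Smarcc1. Krt1 was followed most closely by Pebp1 (r = 0.993), Polr2e and Ola1, Krt10 by Ing4 (r = 0.996), Scp2 and Pmvk, and Krt77 by Fnta (r = 0.999), Ghr and Minpp1. No gene is common to 2 of these short lists. With 6141 genes searched over 6 libraries, high r values can arise from the search alone, and r does not compare the size of changes. All points share the library, its depth and its scaling, so no p is given.

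Of the markers of other cell types, those of melanocytes and most of those of dermal fibroblasts rose. The counts below stand beside 17.7% higher and 15.9% lower over all genes tested. All 8 melanocyte markers rose, with a summed level of 478 to 711 in the controls and 3104 to 4978 in the labelled knockouts; Dct, Tyrp1 and Mlana rose by 2.90, 4.36 and 4.26 on the log2 scale. Of 5 measured dermal fibroblast markers 4 rose (summed level 419 to 923 against 1037 to 2698), among them Col1a1 at 3.62, Col1a2 at 1.65 and Col3a1 at 3.81. Dcn went the other way, at -0.75 ± 0.58, and did not pass. Vim, at 1.41 ± 0.47, was the largest part of the sum in each library. It was at 532, 331 and 282 in the controls and at 717, 2202 and 597 in the labelled knockouts. Without control 1, Col1a1 and Col3a1 were at 2.56 and 3.10, without control 2 at 4.4 and 4.56. Of 7 leukocyte markers 1 rose (Lyz2, 1.34) and 1 fell (Cd3e, -3.06), with summed levels of 140 to 360 against 86.9 to 589. Lyz2 did not pass in any fit with 1 library left out, nor Cd3e without control 2. Of 8 hair follicle markers 1 rose (Sox9, 2.77) and 1 fell (Tchh, -2.88), with summed levels of 2513 to 3046 against 1556 to 3238. Sox9 was at 1.34 for labelled knockout 1 alone and at 3.48 without it, and Tchh at -3.60 without labelled knockout 2. The only endothelial marker measured, Pecam1, was at 1.85 ± 0.87 and did not pass (2.66 to 5.72 against 6.54 to 59.6). None of 3 red cell markers passed, Hba-a2 being at -0.51 ± 1.62 and Hbb-bs at -0.73 ± 1.76 (summed level 13.6 to 112 against 0.935 to 695). No marker in these lists was at 0 in all controls, and the markers of Merkel cells, skeletal muscle and adipocytes were not analysed here. The part of other cell types in the keratin values was not tested.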

How the data were processed

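The authors deposited normalized counts, a signal per gene and library with no value below 0. Of tools, the submitters' processing notes name Partek 9.0.20.0202 and TopHat2 2.1.0, and of builds mm39, without saying what each did. How reads were counted and normalized, their length and their strand are not given in these sources. Of each library's low values (up to 20 reads), 80.8 to 83.3% were whole multiples of 1 step within 0.02 of a step, too few to recover reads, so a count model was not fitted; reads quoted are estimates from that step. A symbol was found for 12771 Ensembl IDs and for 123 there was none.

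Genes above 1 in at least 3 of 6 libraries (12872) were fitted with limma 3.58.1 in R 4.3.3 (eBayes with trend) on log2(value + 1), which understates changes of low genes. P-values were two-sided. The fit was tested on simulated data. Ratios were compared by two-sided exact permutation tests, adjusted over 12 ratios. Nothing in the labels says more of separate animals than the title numbers, so p-values measure the spread between these libraries. Deviations from group means correlated at 0.37, 0.23 and 0.36 within adjacent animal numbers and at -0.28 to -0.07 otherwise. Named genes were the members, Hnrnpu, the wound keratins, other keratins past the threshold with a mean of at least 10, up to 3 of each list by smallest adjusted p (the 2 of highest mean where none passed) and the 3 most alike in pattern; further genes of the lists were named after their values were seen. The members and lists were chosen with earlier results of these data known. Transcript lengths and shared stretches come from GENCODE M21 (GRCm38), a build other than the files', so no coordinates of the files are given. Alternatives were 18 settings of the fit.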

Additional observations from a re-analysis of the deposited data

How the results depend on the processing

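Over 18 alternative settings of the fit, 104 of 108 member values kept their direction and side of the threshold. Krt14 ranged from 2.50 to 3.85, Krt15 from -7.37 to -5.81, Krt77 from -3.90 to -2.67 and Krt1 from -0.59 to -0.05 on the log2 scale. The exceptions were Krt5 at -0.64 with the replicate block (adjusted p = 0.0374) and 0.23 for labelled knockout 1 alone, and Krt10 at -0.81 with library totals set equal and -0.77 with totals without keratins. The replicate block of adjacent animal numbers, which the labels do not state, changed no other member call. The count over all genes was 4328, against 5781 with the block, 2485 for labelled knockout 1 alone and 2644 to 4509 with 1 library left out; those from fewer libraries have fewer samples. It was 2700, 2674 and 2644 without control 1, 2 and 3. Of the calls 52.7% were higher as deposited, 32.0% with totals set equal and 34.1% with totals without keratins. Leaving out 1 library at a time, the log2 ratio difference was 3.04 to 4.30 for Krt14 to Krt5, -7.06 to -5.44 for Krt15 to Krt5, -11.4 to -8.49 for Krt15 to Krt14, -3.50 to -2.53 for Krt77 to Krt1, -0.285 to -0.178 for Krt10 to Krt1, -1.02 to 0.013 for Krt5 to Krt1, -0.32 to 0.78 for suprabasal minus basal and -0.044 to 0.325 for type I to type II. With the wound keratins left out of the denominator, the change in share of keratin counts was -1.52 percentage points for all members (main -41.5), -11.6 for suprabasal (main -44.8) and 10.1 for basal members (main 3.28). Hnrnpu was at 0.018 with array weights, 0.263 for labelled knockout 1 alone and -0.146 to 0.152 with 1 library left out. Hba-a2 was at 0.155 with a pseudocount of 5 and between -2.56 and 0.945 with 1 library left out, and Hbb-bs between -3.03 and 0.96. The cause of these changes was not tested. Lyz2 did not pass in any fit with 1 library left out. An estimated 13 to 113 reads for Krt77 and 3 to 54 for Krt15 limit their values in the labelled knockouts.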
